A study of Mus musculus with 8 samples.

Results

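The 10 genes described here encode proteins of endothelial cell junctions and the receptors that endothelial cells use to sense angiogenic growth factors: Pecam1, Cdh5, Esam, Cldn5, Kdr, Flt1, Flt4, Tek, Tie1 and Emcn. They were chosen by symbol, and all 10 were found among the 14162 genes of the deposited table. The table covers 8 RNA sequencing libraries. They were made from hepatic stellate cells of mice, the vitamin A storing pericytes of the liver sinusoid, which become matrix-producing myofibroblasts on activation. There were 2 libraries, called a and b, in each of 4 groups: activated cells with miR-15a, activated cells with a control microRNA, activated cells with no microRNA named, and quiescent cells. The series aimed to identify candidate miR-15a targets. Mice of 2 kinds, C57BL/6J and SCID, are named in the labels without being tied to a library. The labels give no dose, time in culture, age or mode of activation. Nor is it stated that a group's libraries had different animals or cultures as their source. The p-values therefore reflect the spread between the libraries at hand, some of which may be technical.

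Endothelial cells line blood vessels and are held together by adherens and tight junctions, in which VE-cadherin (Cdh5) and claudin 5 (Cldn5) are the endothelial members of their families. Vascular endothelial growth factors act through 3 receptor tyrosine kinases, of which VEGFR2 (Kdr) carries most of the signal for growth and permeability, VEGFR1 (Flt1) binds ligand tightly and can act as a decoy, and VEGFR3 (Flt4) binds VEGF-C and VEGF-D. Angiopoietins act through TIE2 (Tek), and the related TIE1 modulates TIE2. They are general endothelial genes and not specific to the sinusoidal endothelium that lies against the stellate cells in the liver.

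The values are normalized scores rather than reads. All 8 libraries held the same 910 distinct whole numbers, totals lay within 0.409% of each other, and because read depth is not known, counting intervals are left out. High scores lie on shared steps, so libraries can be tied. The labelled cell type was checked against markers. Among genes of quiescent stellate cells, Reln had 7724 and 8724 in the quiescent libraries, Colec11 had 1208 and 1332, and Des had 131 and 120. Of 10 such markers measured, 7 were lower in activated than in quiescent cells and 3 higher (all genes, 34.1% lower and 45.4% higher). The 3 were Pdgfrb (7286 and 7720 in activated cells, against 386 and 335 in quiescent cells), Ngfr (477 and 452 against 220 and 220) and Hand2 (70 and 65 against 35 and 46). The myofibroblast actin gene Acta2 had 125636 in both activated libraries, against 43 and 51 in quiescent ones. The quiescent libraries also held markers of other liver cells at high scores: Stab2, of sinusoidal endothelium, had 125636 and 58193, and Marco, of macrophages, had 10504 and 11352. Genes of the sex chromosomes moved with the groups as well. Xist had 3373 and 3373 with miR-15a, 3373 and 5027 in control microRNA libraries, 169 and 21 in activated cells, and 8724 and 8724 in quiescent cells, while the Y-linked Ddx3y had 1046 and 1006, 1282 and 1268, 2606 and 2570, and 44 and 40 in the same groups. Effects of a group and of the animals behind it cannot be told apart. In these bulk libraries, fewer cells of a type and less RNA per cell cannot be told apart either.

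Mature miR-15a and the places where it could pair with the 10 genes are shown first, since pairing through its seed is how the microRNA is known to act. The mature sequence (RefSeq, build GRCm38.p6, chromosome 14, 61632075 to 61632096, minus strand) has its seed, bases 2 to 8, in capitals.
mmu-miR-15a-5p: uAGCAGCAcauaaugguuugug
The complement of the seed, TGCTGCT, was sought in 3′ UTRs (GENCODE, GRCm38), taking the longest where a gene has several. It was found in 3 of the 10 genes, against 23.9% of the 12528 genes of the table for which such a UTR was matched by symbol. The 3 sites follow, read along the transcript with the match in capitals.
Pecam1: ggaaatacacagTGCTGCTcaggtttgcct
Kdr: tcacgagagaggTGCTGCTtagattttcaa
Flt1: tgtggctttataTGCTGCTtgtgtgaagtt
The Pecam1 match lies on chromosome 11 at 106654682 to 106654688, in exon 14 of 14, and the Kdr match on chromosome 5 at 75934361 to 75934367, in exon 30 of 30. The Flt1 match lies on chromosome 5 at 147636535 to 147636541 in the last exon of a 13-exon transcript with 2064 coding bases. The 30-exon Flt1 transcript, with 3999 coding bases, held no match in its 3′ UTR of 2616 bases. Gene-level scores do not separate these transcripts. The other 7 genes held no match in these windows. A match is a description of letters and does not show a site in use.

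**Figure D1:**
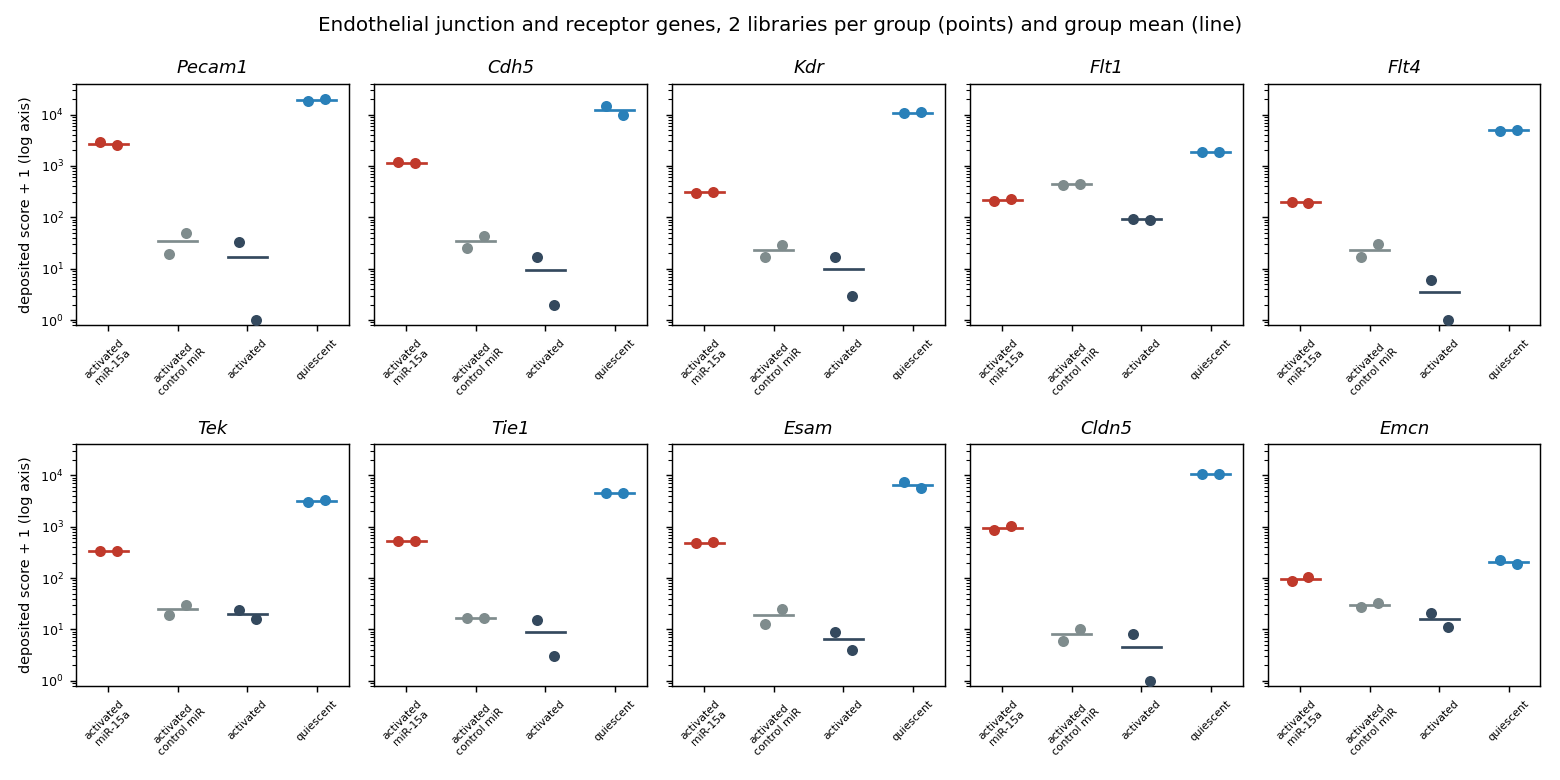
Deposited score plus 1 on a log axis for each of the 10 genes in the 4 groups. Points are libraries and lines are group means. For 9 genes the miR-15a libraries lie between the quiescent libraries and the other activated ones, and for Flt1 the control microRNA libraries (425 and 444) lie above the miR-15a libraries (211 and 222).

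Activated cells with miR-15a were set against activated cells with the control microRNA to ask which genes miR-15a changed. Of the 10 genes 9 were higher with miR-15a and 1, Flt1, was lower. Over all 13150 genes tested, 14.4% were higher and 15.4% lower. The median log2 fold change of the 10 genes was 4.02, ranging from -0.99 to 6.32, against -0.07 over all genes tested. Fold changes are on the log2(score + 5) scale, which understates changes of low genes, and the threshold for a call was an adjusted p below 0.05 in limma.

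The junction genes rose strongly. Pecam1 (chromosome 11, 106654217 to 106750628, minus strand), an adhesion molecule of endothelial contacts that platelets and leukocytes also carry, had scores of 2865 and 2570 with miR-15a, against 18 and 48 with the control microRNA. Its log2 fold change was 6.28 ± 0.82 (SE, adjusted p = 0.0015). Cldn5 (chromosome 16, 18776847 to 18778262, plus strand), the main claudin of endothelial tight junctions, had 842 and 1046 with miR-15a, against 5 and 9 with the control microRNA, a log2 fold change of 6.32 ± 0.37 (adjusted p = 3.0e-05). For both genes the miR-15a libraries lay far above the control libraries, without overlap. Cdh5 (chromosome 8, 104101625 to 104144511, plus strand), VE-cadherin of adherens junctions, had 1170 and 1146, against 24 and 43 with the control microRNA, a log2 fold change of 4.96 ± 0.53 (adjusted p = 6.0e-04). Esam (chromosome 9, 37528078 to 37538319, plus strand), an immunoglobulin-type adhesion molecule of tight junctions and platelets, had 473 and 492, against 12 and 24, a log2 fold change of 4.46 ± 0.30 (adjusted p = 5.7e-05). None of the 4 junction genes was above 48 in a control library or below 473 in a miR-15a library.

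The 3 VEGF receptor genes did not move together. Kdr (chromosome 5, 75932827 to 75978458, minus strand) had 299 and 310 with miR-15a, against 16 and 28 with the control microRNA, a log2 fold change of 3.56 ± 0.46 (adjusted p = 0.0014). Flt4 (chromosome 11, 49609263 to 49652739, plus strand) had 201 and 190, against 16 and 29 with the control microRNA, a log2 fold change of 2.91 ± 0.33 (adjusted p = 8.4e-04). Flt1 (chromosome 5, 147561604 to 147726011, minus strand) went the other way: it had 211 and 222 with miR-15a, against 425 and 444 with the control microRNA. Its log2 fold change was -0.99 ± 0.07 (adjusted p = 8.4e-05), and the groups did not overlap. The ratio of the Kdr score to the Flt1 score was 1.42 and 1.4 in the miR-15a libraries, against 0.0376 and 0.0631 in the control libraries. It was 0.174 and 0.0225 in activated cells, against 5.65 and 5.99 in quiescent cells. These ratios show that the receptor genes changed unequally, and they are not ratios of molecules, since the scores were not divided by transcript length.

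Both TIE receptor genes rose. Tek (chromosome 4, 94739289 to 94874976, plus strand), the angiopoietin receptor, had 332 in both miR-15a libraries, against 18 and 29 with the control microRNA, a log2 fold change of 3.59 ± 0.22 (adjusted p = 3.3e-05). Tie1 (chromosome 4, 118471191 to 118490061, minus strand), its partner receptor, had 534 and 533, against 16 and 16, a log2 fold change of 4.68 ± 0.39 (adjusted p = 1.5e-04). The ratio of the Tie1 score to the Tek score was 1.61 in both miR-15a libraries, against 0.889 and 0.552 in control libraries, and quiescent cells had 1.49 and 1.39. Emcn (chromosome 3, 137341067 to 137432185, plus strand), a sialomucin of capillary and venous endothelium, had the lowest score per kilobase of the 10 genes in quiescent cells and the smallest fold change among the 9 that rose. It had 86 and 106 with miR-15a, against 26 and 32 with the control microRNA, a log2 fold change of 1.57 ± 0.26 (adjusted p = 0.0046).

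**Figure D2:**
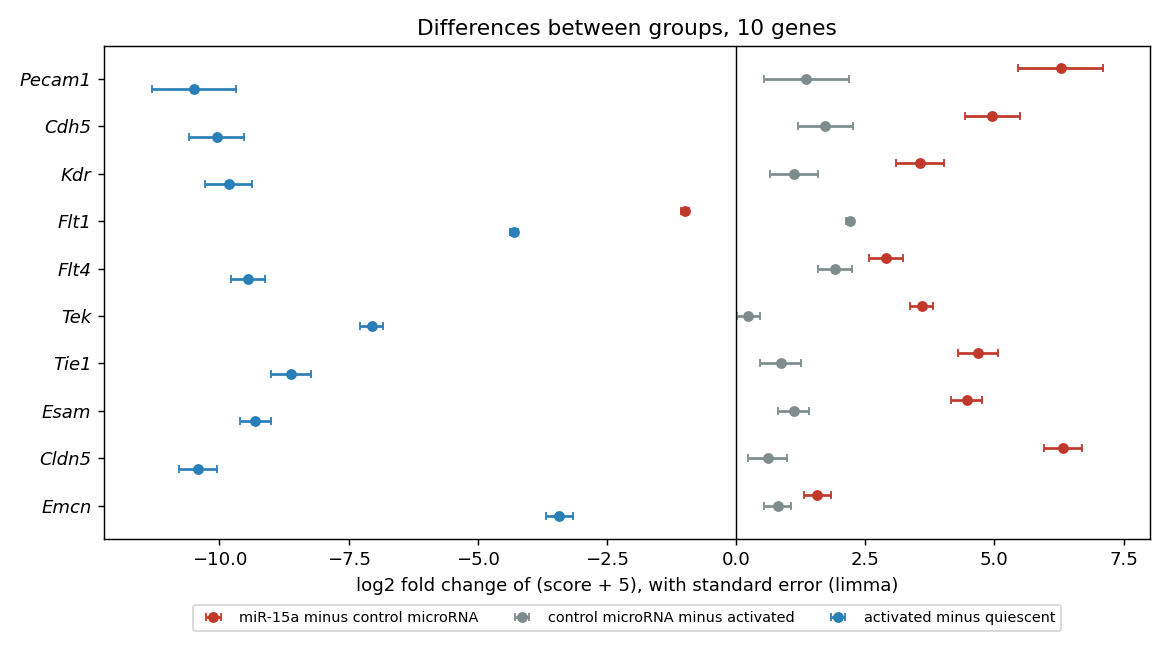
Log2 fold changes of score plus 5 with standard errors (limma) for the 10 genes, in miR-15a minus control microRNA, control microRNA minus activated, and activated minus quiescent. Flt1 is the only one of the 10 with a negative value against the control microRNA (-0.99), and its value for control microRNA minus activated (2.20) is the largest of the 10.

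The control microRNA itself was set against activated cells with no microRNA named, which gives the background against which the Flt1 difference stands. Flt1 had 425 and 444 with the control microRNA, against 92 and 89 in activated cells, a log2 fold change of 2.20 ± 0.07 (adjusted p = 2.5e-05). Flt4 and Esam were also called higher, so 3 of the 10 genes rose and none fell, against 7.18% higher and 6.61% lower over all genes (944 and 869 genes, or 1370 and 493 with median-ratio scaling). Flt4 had 16 and 29, against 5 and 0 in activated cells, a log2 fold change of 1.92 ± 0.33 (adjusted p = 0.013), and its call was lost without control library b (adjusted p = 0.068). Esam had 12 and 24, against 8 and 3, a log2 fold change of 1.12 ± 0.30 (adjusted p = 0.049), and its call was lost under 13 of 16 alternatives. The other 7 genes did not pass, with log2 fold changes from 0.24 ± 0.22 for Tek (18 and 29 against 23 and 15) to 1.73 ± 0.53 for Cdh5 (24 and 43 against 16 and 1).

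These low values depended on single libraries. In activated cells library a was above library b for all 10 genes, with Pecam1, for example, at 32 and 0. With the control microRNA, library b was above library a for 9 genes and tied for Tie1. Xist was also higher in activated library a (169, against 21 in b) and in control library b (5027, against 3373 in a), and the hepatocyte gene Alb had 48 in control library a and 640 in b. In activated cells Alb ran opposite to the 10 genes, with 118 in library a and 162 in b. The part of Xist and Alb in the result was not tested. Without activated library a, 8 of the 10 genes were called higher with the control microRNA, and without control library b, 1 was, Flt1. Flt1 itself stayed at 2.17 to 2.23 whichever library was left out.

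Against activated cells with no microRNA named, all 10 genes were higher with miR-15a, against 16.8% higher and 21.6% lower over all genes. With median-ratio scaling, another way to set libraries on a common scale, 3111 genes were higher and 1620 lower in place of 2204 and 2841, and the calls of the 10 genes held. Flt1 had 211 and 222, against 92 and 89, a log2 fold change of 1.21 ± 0.07 (adjusted p = 2.2e-05), so Flt1 was higher than in activated cells and lower than with the control microRNA. The other 9 ranged from 2.38 ± 0.26 for Emcn (86 and 106 against 20 and 10) to 7.64 ± 0.82 for Pecam1 (2865 and 2570 against 32 and 0). This comparison shares the miR-15a libraries with the one against the control microRNA. The difference for Kdr was 4.67 ± 0.46 (299 and 310 against 16 and 2) and for Cldn5 6.93 ± 0.37 (842 and 1046 against 7 and 0).

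Activated cells were set against quiescent cells to describe activation. All 10 genes were lower in activated cells, against 34.1% lower and 45.4% higher over all genes. The median log2 fold change was -9.38, from -10.49 to -3.42, against 0.21 over all genes. Pecam1 had 32 and 0 in activated cells, against 18666 and 20500 in quiescent cells, a log2 fold change of -10.49 ± 0.82 (adjusted p = 1.1e-05). Cldn5 had 7 and 0, against 10507 and 10507, and Cdh5 had 16 and 1, against 14432 and 9824. Kdr had 16 and 2 in activated cells, against 10504 and 11352 in quiescent cells, a log2 fold change of -9.82 ± 0.46 (adjusted p = 5.8e-07). For Pecam1, Cldn5, Cdh5 and Kdr no activated library exceeded 32 and no quiescent library was below 9824. Flt1 and Emcn fell least. Flt1 kept 92 and 89, against 1858 and 1896 in quiescent cells, a log2 fold change of -4.30 ± 0.07 (adjusted p = 5.0e-09). Emcn kept 20 and 10, against 225 and 183, a log2 fold change of -3.42 ± 0.26 (adjusted p = 9.7e-06). The remaining 4 genes lay between: Tek fell by 7.05 (23 and 15 against 2992 and 3264), Tie1 fell by 8.61, Esam fell by 9.31 and Flt4 fell by 9.44 on the log2 scale. Under median-ratio scaling the median of all genes shifted by -0.27 in this comparison, which is smaller than each of these differences. Genes that work with the 10 did not all fall. Of 7 co-receptors and phosphatases, 6 were lower in activated cells and 1, Mcam, was higher (3895 and 3604 against 586 and 604). Mcam is also an endothelial marker, counted here and not among the other endothelial genes. Of 14 junction partners 6 were lower and 6 higher (median -0.13, against 0.21 over all genes). Of 4 VEGF ligands 2 were lower and 2 higher (median 1.26). For both lists the share that was higher is near the 45.4% over all genes. Every measured marker of 6 further lists was lower in activated cells: 9 of other endothelial genes, 7 of sinusoidal endothelium, 10 of macrophages, 7 of hepatocytes, 2 of platelets and 1 of leukocytes. Not all lists were uniform. Of 3 lymphatic endothelial markers 2 were lower and 1, Pdpn, was higher (813 and 762 against 12 and 11). Of 11 genes of VEGF receptor signalling and feedback 9 were lower and 2 higher.

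With miR-15a the 10 genes did not reach the quiescent scores. All 10 were called lower than in quiescent cells, against 34.4% lower and 37.1% higher over all genes. The call of Pecam1 (log2 fold change -2.85 ± 0.82, adjusted p = 0.015) was lost without any 1 library of either group. It was also lost with a pseudocount of 1 (adjusted p = 0.11). The SE is estimated over all 4 groups, so the activated scores of 32 and 0 enter it. The scores compared were 2865 and 2570 with miR-15a, against 18666 and 20500 in quiescent cells. The call of Emcn (-1.05 ± 0.26, adjusted p = 0.0078) was lost without miR-15a library a or quiescent library a. As a share of the quiescent mean, the scores with miR-15a ranged widely among the 10 genes. Emcn stood at 42.2% and 52.0% in the 2 libraries and Pecam1 at 14.6% and 13.1%. Tie1, Flt1 and Tek averaged 11.9%, 11.5% and 10.6%, and Cdh5, Cldn5 and Esam averaged 9.55%, 8.98% and 7.39%. Flt4 averaged 3.99% and Kdr 2.79%, the lowest share, at 2.74% and 2.84% in the 2 libraries. The gap between Kdr and the next genes was larger than the spread between libraries of either. The summed score of the 10 genes was 9.40% of the quiescent sum with miR-15a, 0.860% with the control microRNA and 0.239% in activated cells. Flt1 made up 68.0% of the sum with the control microRNA and 51.0% in activated cells. Without Flt1 the sums of the other 9 were 9.34%, 0.282% and 0.120% of the quiescent sum in these 3 groups. The sums were not divided by length, and Flt1 has the longest annotated exons of the 10 (13504 bases), which adds to its share.

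**Figure D3:**
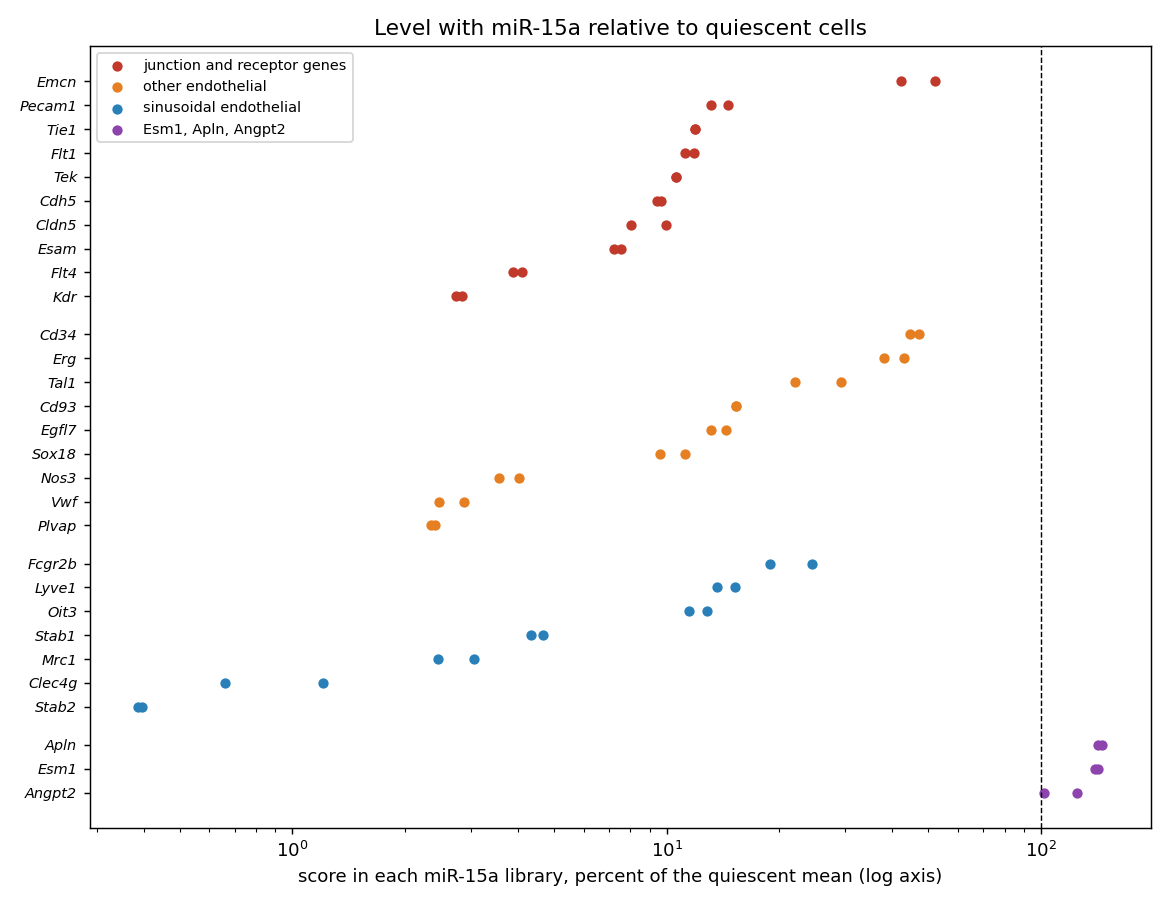
Score in each of the 2 miR-15a libraries as a percent of the quiescent mean, on a log axis, for the 10 genes, other endothelial genes, sinusoidal endothelial genes, and Esm1, Apln and Angpt2. The dashed line marks 100%. Kdr lies at 2.79% on average and Emcn at 47.1%, while Stab2 lies at 0.392% and Esm1 at 141%. Esm1, Apln and Angpt2 were not called against quiescent cells.

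Apart from the ratios and sums above, levels of different genes were compared as score per kilobase of annotated exon. That length is the union of all transcripts of a gene, which understates genes with long rare exons. Read this way, the quiescent order was Cldn5 (7420 per kilobase on average), Pecam1 (3140), Cdh5 (2890), Esam (2280), Kdr (1210), Tie1 (914), Tek (664), Flt4 (595), Flt1 (139) and Emcn (37.7). Pecam1 and Cdh5 overlapped between libraries, as did Cdh5 and Esam, so those neighbours did not differ beyond their spread. With miR-15a the order at the top was the same, with Cldn5 at 667, Pecam1 at 436, Cdh5 at 276 and Esam at 168 per kilobase. Tie1 (109) and Tek (70.5) then stood above Kdr (33.7), which had been above both in quiescent cells. Flt4 followed at 23.7, and Emcn (17.7) and Flt1 (16.0) overlapped at the bottom. With the control microRNA, Flt1 was the highest of the 10, at 31.5 and 32.9 per kilobase, with the other 9 between 1.77 and 10.2.

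Flt1 and Kdr lie on the same chromosome and had the most different patterns of the VEGF receptors. The 250 bases before their RefSeq start sites are therefore shown. Capitals mark AGGAAG or its complement, a form of the site recognised by ETS factors that act in endothelial cells. Both genes are on the minus strand of chromosome 5 in GRCm38.p6, and the sequences are read toward the gene.
Flt1 (147726012 to 147726261): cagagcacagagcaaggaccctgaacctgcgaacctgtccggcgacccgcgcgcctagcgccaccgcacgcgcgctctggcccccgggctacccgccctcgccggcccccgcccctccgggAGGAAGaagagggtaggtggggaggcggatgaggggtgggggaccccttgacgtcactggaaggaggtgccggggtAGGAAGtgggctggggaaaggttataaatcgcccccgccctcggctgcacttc
Kdr (75978456 to 75978705): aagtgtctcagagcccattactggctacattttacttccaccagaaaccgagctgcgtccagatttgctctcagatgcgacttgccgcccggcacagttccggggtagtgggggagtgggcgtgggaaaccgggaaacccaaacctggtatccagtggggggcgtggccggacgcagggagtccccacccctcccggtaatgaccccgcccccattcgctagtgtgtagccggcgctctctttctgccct
Flt1 held 2 matches to AGGAAG and Kdr none. Other forms of ETS site were not sought, so the Kdr window is not shown to lack them. The table of promoters covered 7 of the 10 genes, all but Pecam1, Cdh5 and Esam. AGGAAG on either strand was present in 3 of these 7 (Flt1, Tie1 and Emcn), against 29.5% of 32851 windows of the same length. AGATAA, a form of the site recognised by GATA factors, was in none of the 7 windows, against 9.99% of all windows. These counts describe letters in these windows and say nothing about binding.

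Of 4 VEGF ligand genes measured, 2 fell and none rose with miR-15a against the control microRNA (all genes, 14.4% higher and 15.4% lower; median log2 fold change -0.46, against -0.07 over all genes). Vegfa, the ligand of Kdr and Flt1, had 1715 and 1762 with miR-15a, against 2460 and 2330 with the control microRNA, a log2 fold change of -0.46 ± 0.11 (adjusted p = 0.018). Figf, which encodes VEGF-D, had 205 and 147, against 330 and 390, a log2 fold change of -1.03 ± 0.19 (adjusted p = 0.0065). Both were higher in activated than in quiescent cells: Vegfa had 2605 and 2991 in activated cells, against 218 and 176 in quiescent cells, and Figf had 316 and 262, against 2 and 2. The longest annotated 3′ UTR of Vegfa holds 1 match to the miR-15a seed. Over genes of the table with a matched 3′ UTR, 23.9% hold a match. The co-receptor gene Nrp2, which rose with miR-15a, held none in its longest 3′ UTR (3325 bases) but 1 in those of 3058 bases. Angpt2, which also rose, held none, and no 3′ UTR was matched for Figf. The Vegfa match lies on chromosome 17 at 46018591 to 46018597.
Vegfa: ttttcttatatcTGCTGCTaaatcgccaag
Vegfc, a ligand of Flt4, did not pass against the control microRNA (184 and 131 against 190 and 153, -0.13 ± 0.19), nor did Vegfb (-0.45 ± 0.22). Against activated cells with no microRNA named, whose Vegfc scores were 65 and 54, Vegfc was higher with miR-15a (1.32 ± 0.19, adjusted p = 0.0019).

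Among the angiopoietins, Angpt2, the context-dependent antagonist of Tek that sprouting endothelium makes, rose with miR-15a. It had 767 and 940, against 68 and 78 with the control microRNA, a log2 fold change of 3.46 ± 0.15 (adjusted p = 8.0e-06). It was at 786 and 715 in quiescent cells and did not pass against them (0.18 ± 0.15, adjusted p = 0.32). Angpt1, the agonist that mural cells make, had 98 and 80 with miR-15a, against 80 and 56 with the control microRNA, and did not pass (0.38 ± 0.28).

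**Figure D4:**
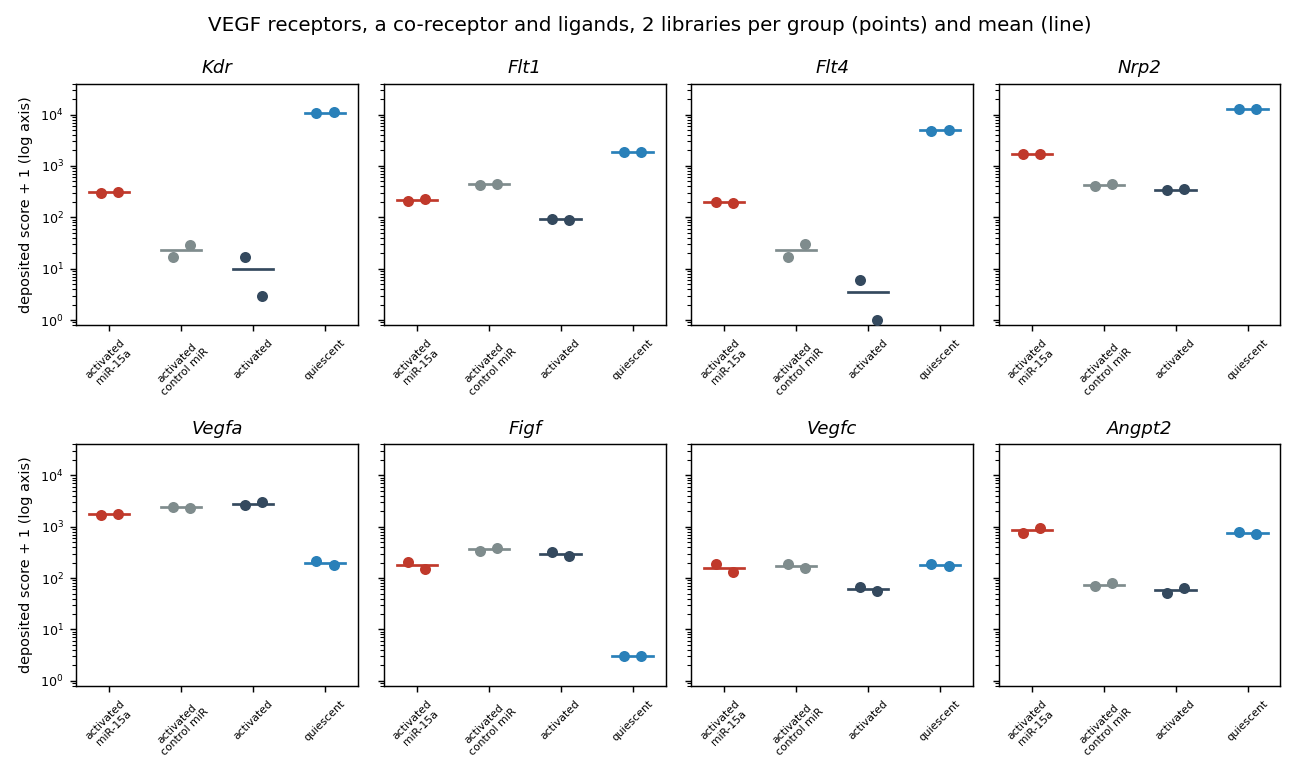
Deposited score plus 1 on a log axis for the VEGF receptors Kdr, Flt1 and Flt4, the co-receptor Nrp2, the ligands Vegfa, Figf and Vegfc, and Angpt2. Points are libraries and lines are group means. Kdr, Flt4, Nrp2 and Angpt2 are higher with miR-15a than with the control microRNA, while Vegfa, Figf and Flt1 are lower.

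Of 7 co-receptors and phosphatases of these receptors, 3 rose with miR-15a against the control microRNA and none fell (median 0.27; all genes, 14.4% higher and 15.4% lower). Nrp2, a neuropilin that binds VEGF-C with Flt4, had 1716 and 1743, against 400 and 452 (2.01 ± 0.07, adjusted p = 2.9e-06). Robo4, an endothelial guidance receptor, had 572 and 528, against 16 and 28 (4.40 ± 0.44, adjusted p = 4.2e-04). Ptprb, the phosphatase VE-PTP that acts on Tek and Cdh5, rose by 0.87 ± 0.08. Nrp1, the neuropilin that partners Kdr and is also made by mesenchymal cells, did not pass (3048 and 2866 against 3264 and 3168). Of 11 genes of VEGF receptor signalling and feedback, 5 rose and 2 fell (median 0.32). Those with the largest differences were Apln (774 and 792 against 60 and 87, 3.35 ± 0.70) and Esm1 (1353 and 1372 against 118 and 144, 3.34 ± 0.95), both genes of sprouting tip cells. Nos3, endothelial nitric oxide synthase, rose by 2.38 ± 0.43, and Spry4, a feedback inhibitor of receptor tyrosine kinases, fell by 1.01.

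Junction partners that many cell types share were counted against the same background of 14.4% higher and 15.4% lower. Of 14 measured partners of adherens and tight junctions, 4 rose and 2 fell with miR-15a against the control microRNA (median 0.12, against -0.07 over all genes), the second a share near that background. F11r, junctional adhesion molecule A, had 296 and 315, against 71 and 74 (2.0 ± 0.12, adjusted p = 3.6e-05). Tjp1, which encodes the scaffold ZO-1, rose by 1.05 ± 0.15, and Jam2 rose by 1.05 ± 0.09. Jup, plakoglobin, fell by 0.83, and Cdh2, the N-cadherin of mesenchymal cells, fell by 0.86. Ctnnb1, the beta-catenin that anchors Cdh5, did not pass (9821 and 9821 against 5764 and 5561, 0.79 ± 0.29, adjusted p = 0.082), though these libraries did not overlap. Its SE is estimated over all 4 groups, so the quiescent scores of 58193 and 125636 enter it.

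Markers of other cells moved with the 10 genes. Of 9 other endothelial markers, 8 rose with miR-15a against the control microRNA (median 2.38). Over all genes, 14.4% were higher and 15.4% lower. The summed score of the 9 markers was 8725 and 8889, against 322 and 470 with the control microRNA. Egfl7, a secreted endothelial protein, had 1896 and 2076, against 41 and 66, and the transcription factor gene Erg had 133 and 118, against 1 and 3. Vwf, the von Willebrand factor of endothelium and megakaryocytes, was the exception on this list. It had 7 and 6 with miR-15a, against 2 and 4, and 270 and 216 in quiescent cells. Among endothelial markers counted with the co-receptors, Robo4 and Ptprb rose. Mcam (2037 and 1896 against 2170 and 2022, -0.09 ± 0.07) and Eng (688 and 738 against 588 and 799, 0.06 ± 0.14) did not pass. All 7 sinusoidal endothelial markers rose (median 3.69, summed score 4019 and 4296 against 202 and 290). Their shares of the quiescent mean ranged from 0.392% for Stab2, whose quiescent library a stood at the ceiling of the scores, to 21.6% for Fcgr2b. Esm1, Apln and Angpt2, set side by side after their values were seen, stood at 141%, 144% and 114% of the quiescent mean with miR-15a. None of these 3 was called against quiescent cells (Esm1 0.49 ± 0.95, adjusted p = 0.68, Apln 0.52 ± 0.70, adjusted p = 0.54, and Angpt2 0.18 ± 0.15, adjusted p = 0.32).

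All 10 macrophage markers also rose (median 2.85), with a summed score of 10560 and 11437 with miR-15a, against 1187 and 1147 with the control microRNA. This count and those below stand beside 14.4% higher and 15.4% lower over all genes. Of 2 platelet markers measured, 1 rose, Pf4, which had 39 and 43, against 7 and 8. Itga2b, which defines platelets, had 6 and 16, against 11 and 9, and did not pass. The leukocyte gene Ptprc had 382 and 478, against 126 and 132. Of 3 lymphatic endothelial markers none rose and 1 fell, and Prox1, the factor that defines lymphatic endothelium, had 2 and 2 with miR-15a, against 2 and 5. Of 7 hepatocyte markers 1 rose and none fell, a share near the 14.4% higher over all genes. Their median was 1.14, against -0.07 over all genes. The summed score was 1187 and 1622 with miR-15a, against 184 and 1051 in control libraries a and b, which differed widely. Among 10 markers of the quiescent stellate state, Reln (2.58 ± 0.23), Hgf (1.35 ± 0.09) and Vipr1 (0.77 ± 0.20) were called higher with miR-15a. All 3 were lower in activated than in quiescent cells. Vipr1 was near the floor, at 8 and 9 against 2 and 4, and Reln had 67 and 82 against 11 and 6. With miR-15a Vipr1 averaged 0.612% of the quiescent mean, Reln 0.906% and Hgf 36.5%. Rgs5, Des, Colec11 and Ecm1, also lower in activated than in quiescent cells, were not called. Ngfr (-0.88 ± 0.13), Hand2 (-1.09 ± 0.17) and Pdgfrb (-0.44 ± 0.09) were called lower, the 3 that were higher in activated than in quiescent cells. Against activated cells with no microRNA named, 4 of these 10 markers were higher with miR-15a and 3 lower (all genes, 16.8% and 21.6%). Hand2 was among the higher there (130 and 105 against 70 and 65, 0.75 ± 0.17). Its control microRNA scores were 270 and 241. Vipr1 did not pass there (0.59 ± 0.20), and Rgs5 was lower (-0.65 ± 0.11). Of 10 myofibroblast markers none was called higher and 2 fell, against 15.4% lower over all genes. The 2 were Postn (-1.35 ± 0.15) and Col1a1 (-0.77 ± 0.22). Several of that list lay at or near the maximum score of 125636, where no rise can be seen: Col1a2 stood there in all activated libraries, and Acta2 was at 125636 and 58193 in both groups. The part of other cells in the differences of the 10 genes was not tested.

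Across the 8 libraries the 10 genes followed each other closely except Flt1. On the log2(score + 5) scale, the Pearson correlation of each gene with the mean of the other 9 was 0.983 to 0.998 for 9 genes and 0.779 for Flt1. These are descriptions over libraries that form 4 groups, so they mostly restate the differences between groups. Outside the 10, the genes most like their mean profile, among 8856 tested genes with a mean score of at least 100, were Cxcl10 (r = 0.9986), Gpr116 (0.9986), Clec4f (0.9984), Trim30a (0.9980), Dchs1 (0.9969) and Sp100 (0.9969). Gpr116 had 1648 and 1604 with miR-15a, 58 and 117 in control microRNA libraries, 53 and 28 in activated cells, and 18677 in both quiescent libraries. Clec4f, a lectin of Kupffer cells, had 672 and 813, 10 and 22, 12 and 1, and 11355 and 14432 in the same groups. Cxcl10, Trim30a and Sp100 are known as genes of the interferon response.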

How the data were processed

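Per the submitters' processing notes, STAR, Subread and featureCounts and the build mm10 were used; versions and settings are not given in the sources used here. The deposited values are named read counts but are whole-number scores with 1 shared distribution in all 8 libraries, as quantile normalization and rounding leave; the deposited score is therefore not a raw count, and the step is recorded in neither labels nor header. All 8 value columns of the table were used.

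Limma (version 3.58.1, R 4.3.3) was fitted to log2(score + 5) with 4 group means over all 8 libraries (4 residual degrees of freedom), a mean-dependent variance prior and Benjamini-Hochberg adjustment over the 13150 genes with a score of at least 10 in at least 2 libraries. All 10 genes passed that filter, also without the quiescent libraries; on the control microRNA and activated libraries alone 9 would have passed. The procedure was tested on simulated data. The 10 genes, the other lists and the tests were chosen with earlier results of these data known. Named genes were the 10, up to 6 called genes per list (any measured member of lists of at most 12), the 6 genes with the most similar profile, and Acta2, Stab2, Marco, Xist and Ddx3y; other members of a list named to show where it stood apart, such as Ctnnb1, were chosen after their values were seen. Alternatives were pseudocounts of 1 and 20, no filter, a filter at 50, median-ratio scaling, only the 2 groups compared, a constant variance prior, a replicate block and each library left out.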

Additional observations from a re-analysis of the deposited data

How the results depend on the processing

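The calls of the 10 genes held under all 16 alternatives for miR-15a against the control microRNA, for miR-15a against activated cells and for activated against quiescent cells. For miR-15a against quiescent cells 153 of 160 held, and for the control microRNA against activated cells 134 of 159 (Cldn5 was under the filter with only those 2 groups). In that last comparison 1 gene was called higher with only the 2 groups in the fit, and 1 to 8 with a library left out. With a library left out, values turned sign there for Pecam1 (-0.08 to 2.80), Cldn5 (-0.02 to 1.24) and Tek (-0.04 to 0.52, and 0 without activated library b). The negative values came without activated library b for Pecam1 and Cldn5 and without control library b for Tek.

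Counts over all genes moved more. With only the 2 groups compared, miR-15a against the control microRNA gave 1240 higher and 1056 lower genes, and the control microRNA against activated cells 245 and 191. Median-ratio scaling gave 1620 lower for miR-15a against activated cells, and 1370 higher and 493 lower for the control microRNA against activated cells; no filter gave 1630 lower there. With a library left out, the lower genes were 1065 to 1922 for miR-15a against the control microRNA and 1129 to 2858 against activated cells, and the control microRNA against activated cells had 365 to 1007 higher and 138 to 676 lower.

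The letters a and b are not said to pair libraries, and deviations from group means correlated at only -0.0666 to 0.0872 between groups. With the replicate block the 10 genes' calls were the same except Esam in the control microRNA against activated cells (1.12, adjusted p = 0.068), which left 2 called. In fits without 1 library, the lone library of a group is assumed to vary like those of the other groups. Depth is unknown and limits the scores near 0.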
